A study of Homo sapiens with 6 samples.

Results

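The lysyl oxidase family was examined by RNA sequencing in MDA-MB-453, a human cell line established from a breast cancer and known for its luminal apocrine character. The tested cells had been transfected with a construct for overexpression of ZNF207 (3 libraries), whose zinc finger product binds microtubules and the checkpoint protein BUB3, and the controls with a control vector (3 libraries). The design text calls the libraries of each group biological replicates; the sources used here give neither the time between transfection and harvest, nor the promoter of the construct, nor whether cells were selected. The family comprised LOX, LOXL1, LOXL2, LOXL3 and LOXL4, which are 5 of the 60569 gene names in the deposited table, found by gene name. The family was proposed because LOX and LOXL2 were already known to be lower in the overexpression libraries, so all differences between the groups for its members are given as descriptions and support nothing.

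Lysyl oxidases are secreted copper enzymes that oxidise the side chains of lysine and hydroxylysine in collagen and of lysine in elastin, and the aldehydes formed then condense into the covalent crosslinks that give matrix its tensile strength. LOX and LOXL1 carry a propeptide that is cut off outside the cell, and LOXL2, LOXL3 and LOXL4 carry scavenger receptor cysteine-rich domains in its place. In breast cancer cells LOX and LOXL2 are best known as hypoxia-inducible genes linked to collagen crosslinking and metastasis.

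The paralogs are most alike in the catalytic part at the end of the coding sequence, which holds the histidine codons of the copper-binding site. LOXL2 was left out of the sequences below, which does not mean that it lacks the site. The site is shown to let the other 4 paralogs be compared. It is printed 5′ to 3′ from the GENCODE v29 transcripts (GRCh38), and capitals mark the 16 of 24 bases that are the same in the 4 sequences shown. In each gene it crosses an exon junction, so the coordinates include an intron. LOX lies on the minus strand (chr5:122074160-122075417), LOXL1 on the plus strand (chr15:73946541-73947076), LOXL3 on the minus strand (chr2:74534422-74534544) and LOXL4 on the minus strand (chr10:98252459-98253566).
LOX: CACagtTGtCAtcaaCATTACCAC
LOXL1: CACagcTGcCAccagCATTACCAC
LOXL3: CACgagTGcCAtgggCATTACCAC
LOXL4: CACcagTGcCAcaggCATTACCAC
Over the last 600 coding bases, the aligned positions of LOX and LOXL1 were 71.0% identical and those of LOXL2 and LOXL3 72.3% identical, while LOX and LOXL2 matched at 61.8%. The longest run shared without a mismatch by any pair of representative transcripts was 26 bases, between LOXL3 and LOXL4, and LOX and LOXL2 shared no run over 15 bases. The sources used here do not give how reads that fit more than 1 gene were assigned.

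FPKM summed to between 589360 and 610832 per overexpression library and to between 594853 and 612711 per control library, and read depth is unknown. ZNF207 stood at 885, 786 and 750 FPKM in the overexpression libraries and at 69.2, 67.0 and 63.7 FPKM in the controls. The luminal markers ERBB2, KRT8 and GATA3 reached 1 FPKM in both groups. Fibroblasts are a main source of lysyl oxidases in tissue; of 9 fibroblast markers only COL1A1 did so, THY1 was listed at 0 in all libraries, and the list summed to between 8.29 and 10.5 FPKM in overexpression libraries and between 9.52 and 11.7 FPKM in controls. The 5 endothelial markers summed to at most 0.577 FPKM in overexpression libraries and 0.503 FPKM in controls, and the 5 leukocyte markers to at most 1.48 and 1.32 FPKM. Among 5 basal and myoepithelial markers only ACTA2 was detected, and this list summed to between 17.9 and 20.5 FPKM in overexpression libraries and between 17.7 and 20.8 FPKM in controls.

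LOXL2 was the most abundant lysyl oxidase of the line and LOX the second, and both were lower in every overexpression library than in any control. LOXL3 was present at a low level that did not separate the groups, LOXL1 stayed under 1 FPKM and LOXL4 was listed at or near 0. FPKM is scaled by transcript length, so levels can be set side by side between paralogs. Within each group the order was LOXL2, LOX, LOXL3, LOXL1 and LOXL4. No neighbours in that order overlapped in range within a group.

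LOX, the founding member, crosslinks fibrillar collagen and elastin. It stood at 5.05, 5.64 and 5.18 FPKM in the overexpression libraries and at 12.0, 11.1 and 10.4 FPKM in the controls. The overexpression libraries lay close together, and their highest value of 5.64 FPKM was below the lowest control at 10.4 FPKM. The means were 5.29 ± 0.307 FPKM with overexpression and 11.2 ± 0.773 FPKM in controls (SD, n = 3 each), a ratio of 0.474, and the difference on the log2(FPKM + 1) scale was -0.95 (SE 0.09). In bulk RNA, fewer cells that express a gene and less RNA per cell cannot be told apart.

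LOXL2, which oxidises collagen IV of basement membranes among other substrates, stood at 19.9, 18.8 and 16.7 FPKM in the overexpression libraries and at 28.8, 32.7 and 27.0 FPKM in the controls. The groups did not overlap here either, and control replicate 2 was the highest library. The means were 18.5 ± 1.64 FPKM with overexpression and 29.5 ± 2.91 FPKM in controls (SD, n = 3 each), a ratio of 0.626, with a log2 difference of -0.65 (SE 0.09). Over all 6 libraries LOXL2 had a higher mean FPKM than 65.2% of the 13185 tested genes, and LOX than 35.9% of them.

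LOXL3, a collagen-modifying paralog required for palate and spine development in mice, stood at 1.95, 1.25 and 1.20 FPKM in the overexpression libraries and at 1.46, 1.34 and 1.60 FPKM in the controls. Overexpression replicate 1 was above every control and the other overexpression libraries were below every control. The means were 1.47 ± 0.424 FPKM and 1.47 ± 0.129 FPKM (SD, n = 3 each), and the log2 difference was -0.013 (SE 0.16).

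LOXL1, the paralog most closely tied to elastin, stood at 0.270, 0.367 and 0.455 FPKM in the overexpression libraries and at 0.800, 0.443 and 0.336 FPKM in the controls. The groups overlapped, and control replicate 1 stood above the other libraries. LOXL4 was listed at 0 in all 3 overexpression libraries and in 2 controls, and at 0.0220 FPKM in control replicate 1. These last 2 genes missed the filter of 1 FPKM in at least 3 libraries, while LOXL3, the lowest member to pass it, had no library under 1.20 FPKM.

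**Figure D1:**
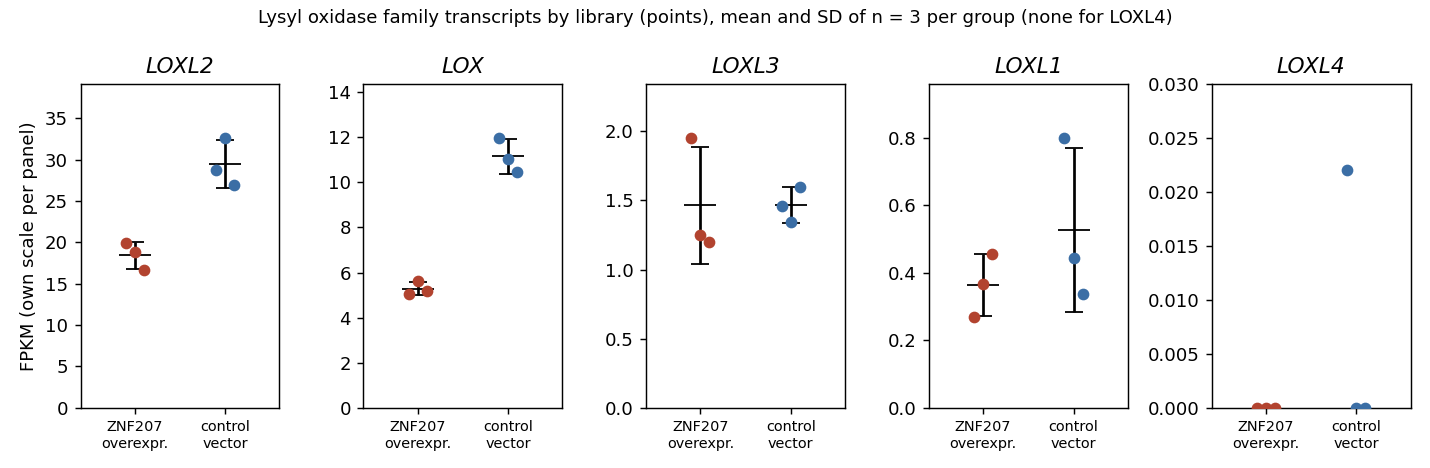
FPKM of each lysyl oxidase in the 3 ZNF207 overexpression libraries (red, left) and the 3 control vector libraries (blue, right), with a separate vertical scale from 0 per gene; points are libraries and bars show the mean and SD, omitted for LOXL4. LOX and LOXL2 do not overlap between groups, with overexpression libraries between 5.05 and 5.64 FPKM and between 16.7 and 19.9 FPKM.

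In the fit across all genes, 28 of 13185 genes (0.212%) were called at a limma adjusted p under 0.05, the 21 that fell being 0.159% of those tested and the 7 that rose 0.0531%. LOX and LOXL2 were among these 21 genes, and LOXL3 was not called. The contrast had been used to choose the family, so nothing is read from that count. The call of LOX was lost without a filter on low values. The call of LOXL2 was lost in 10 of 14 alternatives, including without any 1 of the 6 libraries, although its log2 difference stayed between -0.71 and -0.57. As a background for the values above, every overexpression library was below every control in 10.4% of all tested genes.

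The summed level of the family was 27.2, 26.1 and 23.5 FPKM in the overexpression libraries and 43.0, 45.5 and 39.3 FPKM in the controls, a ratio of means of 0.600. LOXL2 made up 72.1 ± 1.14% of that sum with overexpression and 69.1 ± 2.50% in controls (SD, n = 3 each). Its share overlapped between the groups. LOX made up 18.6%, 21.6% and 22.0% in the overexpression libraries and 27.8%, 24.3% and 26.6% in the controls, with no overlap. The ratio of LOXL2 to LOX was 3.94, 3.34 and 3.22 with overexpression and 2.40, 2.95 and 2.58 in controls. LOXL3 took 5.69 ± 1.31% with overexpression and 3.47 ± 0.562% in controls, again with no overlap. Its mean was 1.47 FPKM in both groups, so its larger share follows from the lower sum and is no separate result.

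**Figure D2:**
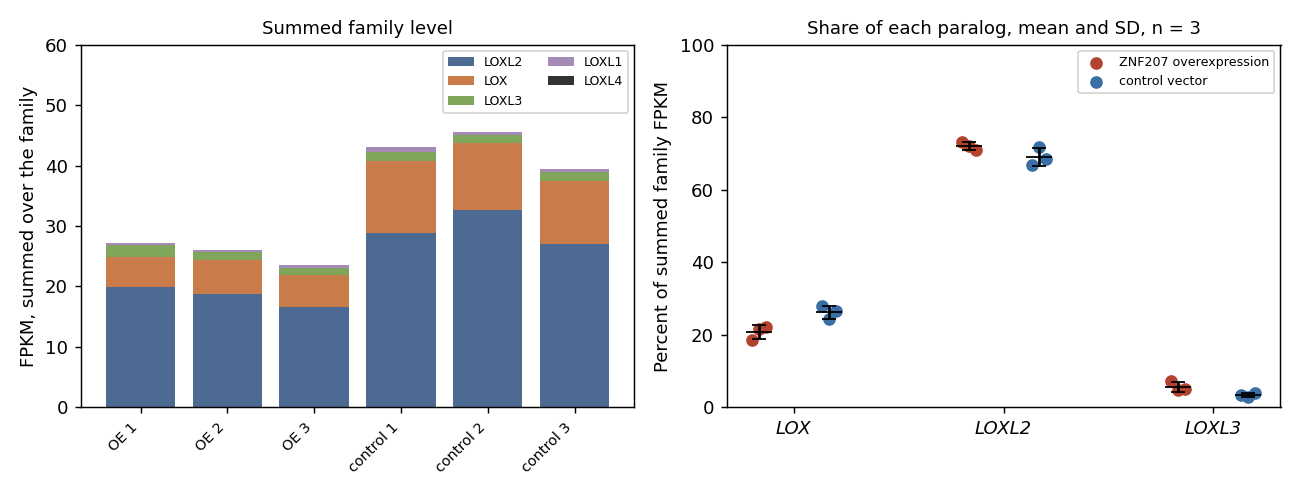
Left, FPKM of the 5 paralogs stacked per library (OE marks ZNF207 overexpression libraries, numbers are replicates). Right, percent of the summed family FPKM held by LOX, LOXL2 and LOXL3 in overexpression (red, left) and control libraries (blue, right), with mean and SD of 3 libraries; LOX averages 20.8% with overexpression and 26.2% in controls.

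Each member overlaps another annotated gene. The overlaps given are those of whole annotated intervals, introns included, and shared exon bases were not counted. The sources used here do not give the strand of the libraries, so reads from overlapping genes on opposite strands may not be told apart. On GRCh38 (GENCODE v29), LOX lies at chr5:122063195-122078360 on the minus strand and overlaps SRFBP1, a gene on the plus strand whose product binds serum response factor, over 12376 bases. SRFBP1 stood at 13.7 ± 0.731 FPKM with overexpression and 13.3 ± 1.13 FPKM in controls (SD, n = 3 each), with a log2 difference of 0.040 (SE 0.09, limma adjusted p = 0.894). LOXL2 lies at chr8:23297189-23425328 on the minus strand and overlaps ENTPD4, a nucleotide-hydrolysing enzyme of the Golgi on the same strand, over 39546 bases. ENTPD4 stood at 14.4 ± 0.385 FPKM with overexpression and 14.3 ± 0.608 FPKM in controls, with a log2 difference of 0.011 (SE 0.07, limma adjusted p = 0.967). Neither neighbour was called. AC090197.1, which also overlaps LOXL2, was listed at 0 in all overexpression libraries and at no more than 0.0309 FPKM in controls.

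LOXL3 (chr2:74532414-74555690, minus strand) overlaps HTRA2, a mitochondrial protease, and DOK1, a docking protein of tyrosine kinases, on the plus strand, and shares its listed locus with AUP1. HTRA2 averaged 20.0 FPKM with overexpression and 19.0 FPKM in controls, DOK1 5.60 and 6.11 FPKM, and AUP1 86.8 and 81.4 FPKM. None of the 3 was called (limma adjusted p between 0.660 and 0.804), and each exceeded LOXL3 in level. LOXL1 (chr15:73925989-73952137, plus strand) overlaps its antisense RNA LOXL1-AS1 over 2260 bases. LOXL1-AS1 was more abundant than LOXL1, at 1.83, 1.74 and 1.55 FPKM in the overexpression libraries and 2.02, 3.15 and 2.31 FPKM in the controls. Its groups did not overlap, but it was not called (log2 difference -0.36, SE 0.15, limma adjusted p = 0.398). LOXL4 (chr10:98247690-98268250, minus strand) overlaps AL139241.1, which was listed at 0 in all 6 libraries.

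The start region of LOX is shown with matches to the core of the hypoxia response element, which reads ACGTG or GCGTG. Hypoxia-inducible factors bind this element. The region was picked with the lower LOX level already known, and whether the matches bear on that level was not tested. RefSeq windows of 250 bases before the start (GRCh38.p14) were searched on both strands. RefSeq gives 3 windows for LOX. The first listed held 4 matches to ACGTG or its reverse complement CACGT, which start 185, 116, 98 and 42 bases before its RefSeq start, and no match to GCGTG. The other 2 windows, which overlap each other, each held 1 match to ACGTG and 1 to GCGTG. Among 27305 gene promoters of the same length, 18.7% held ACGTG at least 1 time and 0.71% at least 4 times. For GCGTG these shares were 31.9% and 1.11%. They use the first window listed for each gene. The share with 4 or more matches to either motif was not counted, so how rare the LOX window is remains unknown. The single windows of LOXL1 and LOXL4 held neither motif. Of the 2 windows of LOXL3, the first listed held neither and the other held 1 match to GCGTG. LOXL2 has no entry. A match is a description of letters, not a binding site. GENCODE places its outermost LOX start 101 bases before that of RefSeq, so the stretch before both starts (149 bases, chr5:122078361-122078509, minus strand) is printed first, with matches in capitals, then 25 bases around each of the other 2 matches (chr5:122078343-122078367 and chr5:122078287-122078311).
LOX upstream: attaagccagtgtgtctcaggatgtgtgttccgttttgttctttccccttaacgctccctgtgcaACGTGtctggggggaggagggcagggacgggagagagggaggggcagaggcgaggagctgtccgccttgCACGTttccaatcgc
LOX match at 98: caatcgcattACGTGaacaaatagc
LOX match at 42: aactttgcaaACGTGccagaaagtt

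No tested gene listed for propeptide processing or copper supply was called. Of 14 listed, 12 were tested. By limma 0 rose and 0 fell, against 0.212% of all tested genes called in either direction. At that share, 0 calls among so few genes says little. By limma 2 of the 12 had an unadjusted p under 0.05. The median log2 difference of the 12 was 0.030 against -0.0078 over all tested genes. BMP1, the protease that removes the LOX propeptide, stood at 7.38 ± 0.393 FPKM with overexpression and 7.17 ± 0.745 FPKM in controls (SD, n = 3 each; log2 difference 0.038, limma adjusted p = 0.918). ATP7A, which loads copper onto secreted enzymes, stood at 3.37 ± 0.0998 and 3.31 ± 0.403 FPKM, and the copper chaperones ATOX1 and COX17 at 110 ± 2.49 and 74.0 ± 6.29 FPKM with overexpression and 110 ± 5.09 and 72.0 ± 1.77 FPKM in controls. In 2 of the 12 the groups did not overlap and overexpression was lower, against 10.4% of all tested genes. These were PCOLCE, an enhancer of BMP1 on procollagen, and PCOLCE2. PCOLCE stood at 18.3 ± 0.996 FPKM with overexpression and 25.1 ± 3.35 FPKM in controls (log2 difference -0.43, SE 0.10, limma adjusted p = 0.108). PCOLCE2 stood at 1.03 ± 0.312 and 1.80 ± 0.244 FPKM (log2 difference -0.47, SE 0.17, limma adjusted p = 0.297).

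The substrates were few. Of 33 collagen chains, 11 passed the filter. By limma 0 rose and 0 fell, against 0.212% of all tested genes called, and 1 had an unadjusted p under 0.05. Here too, and in the other lists without a call, 0 calls among so few genes says little. COL18A1, a basement membrane collagen, stood at 14.2 ± 0.801 FPKM with overexpression and 15.6 ± 1.88 FPKM in controls, and COL1A1, a fibrillar chain, at 9.09 ± 1.01 and 10.2 ± 1.25 FPKM. Its partner chain in type I collagen, COL1A2, was listed at 0 to 0.0122 FPKM with overexpression and at 0 to 0.456 FPKM in controls. COL9A3, a chain of collagen IX, stood at 5.14 ± 0.499 and 4.78 ± 1.01 FPKM. Among collagen IV chains, COL4A1 and COL4A2 averaged 0.0726 and 0.108 FPKM with overexpression and 0.0482 and 0.0810 FPKM in controls. Neither passed the filter. COL4A5, which did, stood at 2.02 ± 0.589 and 1.44 ± 0.242 FPKM (log2 difference 0.29, limma adjusted p = 0.545). The median log2 difference of the 11 chains was -0.011.

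Elastin was nearly absent, with ELN at 0 to 0.128 FPKM under overexpression and 0.0578 to 0.0689 FPKM in controls. Of 24 elastic fibre and matrix partners, 9 were tested, with 0 called in either direction by limma, against 0.212% of all tested genes. By limma 1 had an unadjusted p under 0.05, and the median log2 difference was -0.061. The latent TGF-beta binding proteins led this list. LTBP4 stood at 48.4 ± 3.15 FPKM with overexpression and 49.4 ± 2.65 FPKM in controls, LTBP3 at 38.3 ± 4.40 and 40.3 ± 4.84 FPKM, and LTBP1 at 37.1 ± 5.02 and 29.5 ± 4.59 FPKM (limma adjusted p = 0.316).

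Enzymes that act on collagen before lysyl oxidases do included 2 that fell. Of 18 genes for collagen modification and folding, 14 were tested, of which 0 rose and 2 fell, against 0.159% of all tested genes that fell, and the other 12 were not called, with a median log2 difference of -0.091. By limma, 7 of the 14 had an unadjusted p under 0.05. In 8 of the 14 the groups did not overlap and overexpression was lower, against 10.4% of all tested genes. P4HA1, P4HA2 and PLOD2, which are among these 8, are also in the hypoxia-induced list. The collagen modification list was chosen with earlier results of these libraries known, so it is no independent evidence of its direction. P4HA1, the catalytic subunit of prolyl 4-hydroxylase, fell to 118 ± 6.37 FPKM with overexpression, against 167 ± 4.78 FPKM in controls (log2 difference -0.49, SE 0.06, limma adjusted p = 0.0120). PLOD1, a lysyl hydroxylase that makes the hydroxylysine lysyl oxidases act on, fell to 42.4 ± 1.25 FPKM, against 56.6 ± 3.54 FPKM in controls (log2 difference -0.41, SE 0.06, limma adjusted p = 0.0469). P4HA1 lost its call without overexpression replicate 3 or control replicate 2 (limma adjusted p 0.0595 and 0.0677) and also without a filter or a variance trend, and PLOD1 lost it in 12 of 14 alternatives, among them without any 1 of the 6 libraries. P4HB, SERPINH1 and PPIB, the most abundant members, stood at 392 ± 5.45, 154 ± 3.86 and 284 ± 5.54 FPKM with overexpression and 444 ± 20.0, 154 ± 5.54 and 295 ± 6.41 FPKM in controls (limma adjusted p = 0.213, 0.994 and 0.692).

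Transcription factors and TGF-beta pathway genes known to act on lysyl oxidase genes numbered 22, of which 18 were tested. By limma 0 rose and 0 fell, against 0.212% of all tested genes called, and 3 had an unadjusted p under 0.05. The median log2 difference of the 18 was -0.0086. In 3 of the 18 the groups did not overlap and overexpression was higher, against 7.61% of all tested genes. In 1 overexpression was lower without overlap, against 10.4%. HIF1A, the oxygen-regulated subunit of hypoxia-inducible factor, stood at 76.3 ± 6.03 FPKM with overexpression and 55.1 ± 5.98 FPKM in controls. The groups did not overlap and overexpression was the higher, as in 7.61% of all tested genes, with a log2 difference of 0.46 (SE 0.09, limma adjusted p = 0.0751). Its partner ARNT stood at 32.5 ± 1.22 and 32.4 ± 2.32 FPKM, and SMAD2, a transducer of TGF-beta signals, at 39.4 ± 3.25 and 39.4 ± 3.52 FPKM. HIF-1alpha activity is set mainly by protein stability, which RNA does not show.

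Hypoxia-induced genes outside the family had more called members than any other list. All 24 were tested, of which 0 rose and 7 fell, against 0.159% of all tested genes that fell. The other 17 were not called. The median log2 difference of the 24 was -0.50 against -0.0078 over all tested genes. In 23 of the 24 the groups did not overlap and overexpression was lower, against 10.4% of all tested genes. Earlier results of these libraries had already shown lower hypoxia genes, so this list is no independent evidence of its direction. ALDOC and ENO2, isoforms of the glycolytic enzymes aldolase and enolase, fell by 0.79 and 0.84 on the log2 scale (SE 0.07 and 0.09, limma adjusted p = 0.0038 and 0.0064), and lost their calls only without a filter or without a variance trend. P4HA1 is also a member. PGK1, a glycolytic kinase and one of the most abundant members, fell to between 364 and 421 FPKM with overexpression, against 553 to 595 FPKM in controls (limma adjusted p = 0.0145). Its call was lost without overexpression replicate 1 or 3 or control replicate 2 or 3, and without a filter or a variance trend. BNIP3, a mitophagy receptor, was at 232 ± 27.3 FPKM with overexpression and 332 ± 36.3 FPKM in controls (limma adjusted p = 0.0787), and DDIT4, an inhibitor of mTOR signalling, at 449 ± 47.1 and 617 ± 79.7 FPKM (limma adjusted p = 0.108). The count of 7 was between 2 and 6 when 1 library was left out, and 0 without a filter or without a variance trend. CA9, a carbonic anhydrase used as a marker of hypoxia, was at 3.51 ± 0.903 FPKM with overexpression and 7.48 ± 0.973 FPKM in controls (limma adjusted p = 0.0618). VEGFA, an angiogenic growth factor, was at 111 ± 8.67 and 144 ± 16.4 FPKM (limma adjusted p = 0.127). CA12, another carbonic anhydrase, was the exception in direction, at 91.2 ± 4.24 and 88.2 ± 5.66 FPKM.

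**Figure D3:**
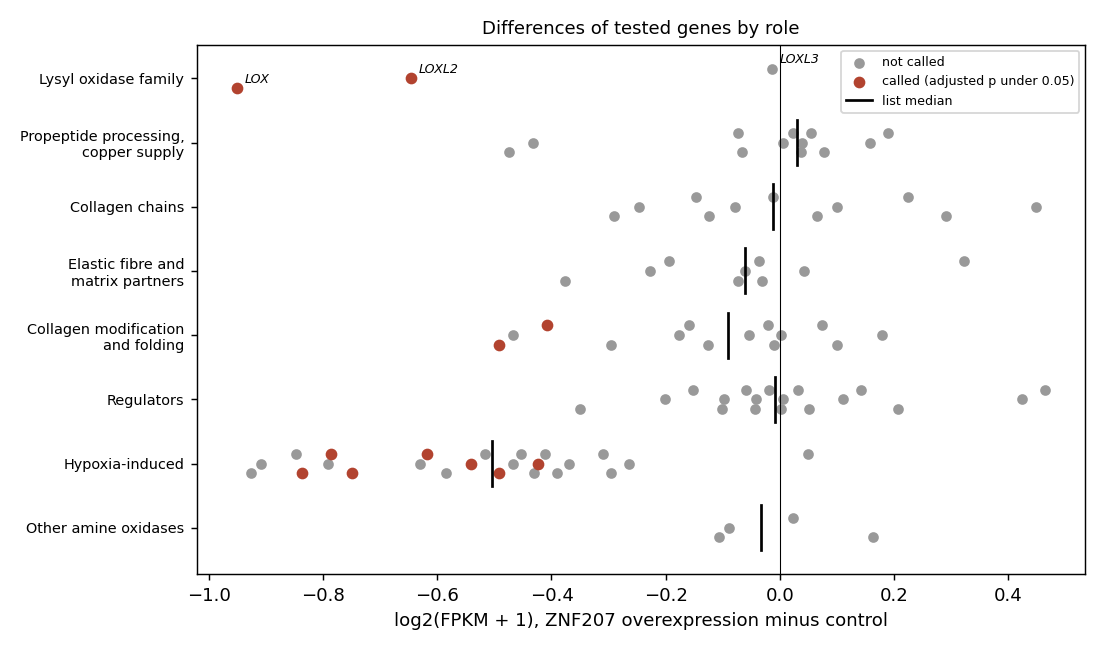
Difference on the log2(FPKM + 1) scale, ZNF207 overexpression minus control, for each tested gene (points) grouped by role, with red points for genes at a limma adjusted p under 0.05 and a black line at each list's median. The hypoxia-induced list has its median at -0.50, while the medians of the other lists lie between -0.091 and 0.030; the family was chosen on this contrast and has no median drawn.

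The 5 tested genes most like LOX across the 6 libraries were taken by the smallest root mean square difference between log2(FPKM + 1) profiles, each centred on its own mean. They were AC015982.2 (0.127), ENO2 (0.136), ALDOC (0.143), RCN3 (0.151) and H19 (0.157). RCN3 encodes a calcium-binding protein of the endoplasmic reticulum, and H19 is an imprinted non-coding RNA. H19 stood at 2.85 ± 0.463 FPKM with overexpression and 5.79 ± 1.04 FPKM in controls (limma adjusted p = 0.0688), and RCN3 at 1.35 ± 0.305 and 3.06 ± 0.570 FPKM (limma adjusted p = 0.0912). AC015982.2 stood at 1.21 ± 0.228 and 3.17 ± 0.514 FPKM (limma adjusted p = 0.0541).

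For LOXL2 the nearest were ARHGEF10 (0.0630), PDK1 (0.0667), HILPDA (0.0670), SFXN3 (0.0682) and GPI (0.0769). PDK1 inhibits pyruvate dehydrogenase, HILPDA coats lipid droplets in hypoxia and GPI is a glycolytic isomerase. PDK1 stood at 19.9 ± 1.48 FPKM with overexpression and 31.1 ± 1.74 FPKM in controls, and GPI at 416 ± 33.0 and 599 ± 23.6 FPKM, and both fell (limma adjusted p = 0.0180 and 0.0196). The calls of PDK1 were lost without overexpression replicate 1 or 3 or control replicate 2, those of GPI without overexpression replicate 3 or control replicate 2 or 3, and those of both without a filter or a variance trend. LOX and LOXL2 differed from each other by 0.192, which made LOXL2 the 13th nearest gene to LOX and LOX the 242nd nearest to LOXL2. Likeness over 6 libraries of 2 groups includes the difference between the groups, on which the family was chosen. Genes picked as nearest to LOX or LOXL2 are thus lower with overexpression by selection. Their adjusted p-values and calls are given as descriptions and support nothing here.

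**Figure D4:**
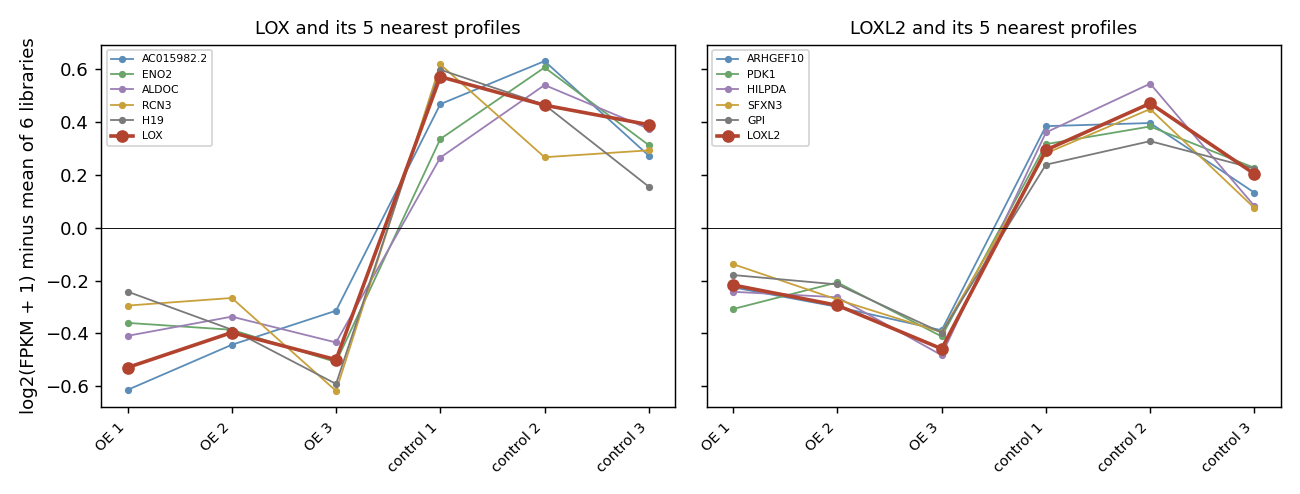
Each gene's log2(FPKM + 1) minus its mean over the 6 libraries, for LOX (left) and LOXL2 (right) in thick red with their 5 nearest genes in thinner lines; OE marks ZNF207 overexpression libraries and lines only join the values of 1 gene. All genes shown lie below 0 in the overexpression libraries and above 0 in the controls, which their choice by likeness to LOX or LOXL2 favours. The lines around LOXL2 lie closer to it (0.0630 to 0.0769) than those around LOX (0.127 to 0.157).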

How the data were processed

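The deposited table holds FPKM values made by the authors, that is, fragment numbers relative to transcript length and to the library's mapped fragments, with 1 column per library. The submitters' processing notes list RSEM 1.3.1, DESeq2 1.4.5, Bowtie2 and the build hg38; the sources used here give neither their roles nor the annotation, strand and filters. Columns named NC were taken as control vector and columns named 207 as ZNF207 overexpression, with the last digit as replicate; this match rests on the names alone. Where a gene name had several rows, that with the highest mean was kept; each family member had 1 row. Read depth is unknown: among 1085 low genes no ratio between 2 libraries was common to more than 0.369%, so no steps of whole reads were found and no count test was used.

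Values were analysed as log2(FPKM + 1), which understates changes of low genes, for the 13185 genes that reached 1 FPKM in 3 or more libraries. The test was that of limma 3.58.1 (R 4.3.3), two-sided with a variance trend; p-values were adjusted by Benjamini and Hochberg's method over every tested gene, and genes under 0.05 were called. Tested on simulated data for this comparison (13185 genes), it recovered 68%, 92% and 98% of genes given log2 changes of 0.5, 1 and 2. Each size was given to 50 genes, as was a change of 3, and there were 10 false calls. The changed genes were drawn only from those with a mean log2(FPKM + 1) above 2, which LOXL3 did not reach. More genes were changed there than were called in the real data, which eases the adjusted threshold. Recovery in the real data may therefore be lower. Members, gene lists and tests were chosen with earlier results of these data known. Named are ZNF207, the members, genes overlapping them, up to 3 called and the 3 most abundant tested members of each list, and the 5 nearest profiles of LOX and LOXL2. Further list members (BMP1, ATP7A, PCOLCE2, COL1A2, COL4A1, COL4A2, COL4A5, ELN, CA9, VEGFA, CA12, AOC1, AOC2, AOC3, MAOA, MAOB, P4HA2 and PLOD2) were chosen after their values were seen. Annotation was GENCODE v29, promoters were from RefSeq, and alignments were made with Biopython 1.88. The 14 alternatives changed the pseudocount, filter, scaling, variance model, block or set of libraries.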

Additional observations from a re-analysis of the deposited data

How the results depend on the processing

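The log2 difference of LOX was -1.06 with a pseudocount of 0.1, and those of LOXL1 and LOXL4 were -0.38 and -0.096 there; every other alternative moved the 5 members and their shares of the summed level by less than 1 SD between replicates. The number of called genes was 28 (7 higher, 21 lower). It was 4 without a filter (3 higher, 1 lower), 64 with the filter at an FPKM of 5 (16 and 48), 18 with TPM scaling and 18 with median-of-ratios scaling (12 lower in each), and 5 without a variance trend (2 and 3). Leaving out 1 library gave 7 to 33 (3 to 8 higher, 4 to 25 lower). With the replicate block it was 145 (56 higher, 89 lower), but the numbers are not known to pair samples: same-numbered libraries correlated at 0.136, 0.009 and 0.175 in their deviations from the group means, and not every library correlated best with its own number. The block called 4 collagen modification, 21 hypoxia-induced, 1 elastic partner and 1 regulator gene, and LOX and LOXL2 were called with it too. The correlations cover all tested genes. Some hypoxia-induced genes shared a pattern across replicates: BNIP3, DDIT4 and PGK1 were highest in replicate 2 of both groups, and ENO2 was not. Members of that list are therefore not separate results.

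In the collagen modification list 1 gene was called with a pseudocount of 0.1, TPM, median-of-ratios or quantile scaling, 0 without a filter or a variance trend, and 0 to 2 without 1 library (median -0.14 to -0.081). In the hypoxia-induced list 0 were called without a filter or a variance trend, 13 with the filter at 5, and 2 to 6 without 1 library. The filter at 5 also called 1 regulator, HIF1A, and gave medians of -0.12 for collagens and -0.13 for collagen modification. The median of other amine oxidases (-0.034) was 0.020 without a filter, 0.028 with the filter at 5 and between -0.071 and 0.036 without 1 library. Uncalled estimates near 0 changed sign without 1 library, with ranges of -0.15 to 0.064 for LOXL3 (0.0082 with quantile scaling), -0.034 to 0.061 for ARNT, -0.031 to 0.035 for ATOX1, -0.053 to 0.18 for COL9A3, -0.021 to 0.10 for COX17, -0.16 to 0.021 for LTBP3, -0.075 to 0.020 for LTBP4, -0.023 to 0.028 for SERPINH1, -0.068 to 0.065 for SMAD2, -0.051 to 0.13 for SMOX, -0.016 to 0.041 for ENTPD4, -0.012 to 0.13 for HTRA2 and -0.026 to 0.083 for SRFBP1. The causes were not tested.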

Other observations

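Amine oxidases of other families were compared as well. Of 10 listed, 4 were tested, and limma called 0 higher and 0 lower, against 0.212% of all tested genes. By limma 0 had an unadjusted p under 0.05. The median log2 difference was -0.034. Of the copper amine oxidases, AOC2 passed the filter, at 1.58 ± 0.120 FPKM with overexpression and 1.75 ± 0.237 FPKM in controls (SD, n = 3 each; log2 difference -0.090, limma adjusted p = 0.848). AOC1 and AOC3 averaged 0.0639 and 0.417 FPKM with overexpression and 0.0303 and 0.359 FPKM in controls. The flavin-dependent monoamine oxidase MAOA averaged 0.0514 FPKM with overexpression and 0.0966 FPKM in controls, and MAOB was listed at no more than 0.0194 FPKM with overexpression and at 0 in controls. KDM1A, a flavin-dependent lysine demethylase of histones, stood at 26.9 ± 1.21 FPKM with overexpression and 29.1 ± 1.66 FPKM in controls (SD, n = 3 each), and its relative KDM1B at 23.4 ± 1.86 and 20.7 ± 0.924 FPKM (limma adjusted p = 0.431). SMOX, spermine oxidase, stood at 1.73 ± 0.343 and 1.69 ± 0.301 FPKM.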
